A study of Homo sapiens with 8 samples.

Results

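The 8 genes TCP1, CCT2, CCT3, CCT4, CCT5, CCT6A, CCT7 and CCT8, which encode the subunits of the cytosolic chaperonin CCT (also called TRiC), were taken by name from the 20453 gene IDs listed in each library, and all 8 were found and passed the filter on low counts in both assays. CCT is a double ring in which each of the 8 related subunits occupies 1 place per ring. It closes over an unfolded protein in its cavity, driven by ATP, and releases it folded. Actin and tubulin are its best known clients, proteins with a beta-propeller fold are another large class, and the co-chaperone prefoldin delivers actin and tubulin chains to it. Around the ring the neighbours follow the order TCP1, CCT3, CCT6A, CCT8, CCT7, CCT5, CCT2 and CCT4. Because a ring holds every subunit once, the relative output of the 8 genes is the quantity of interest, followed here first in mRNA, then in ribosome footprints, then in the mutant.

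The libraries came from cells labelled THP-1, a human acute monocytic leukaemia line, into which either wild-type DNMT3A or a DNMT3A mutant had been introduced by transduction. DNMT3A is a de novo DNA methyltransferase. Both groups thus carry an introduced DNMT3A, while the vector, its promoter and the state of the cells' own copies are not stated in the labels. Reads from mRNA came from RNA-seq. Ribosome profiling gave reads from footprints, the short pieces of mRNA that ribosomes shield from nuclease. With 2 genotypes and 2 assays there were 4 groups, each of 2 libraries.

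Total counts lay between 3415999 and 4523475 in the mRNA libraries, between 1611724 and 1988513 for wild-type footprints, and at 944824 and 603360 for mutant footprints. The subunit genes had between 336 and 3998 counts each in a library, so none was near the floor of 3 counts. Values are given as CPM, counts scaled to a common library size within an assay. They are not divided by gene length, so the order of 2 genes within a library is an order of reads and not of molecules. A change of 1 gene between libraries of the same assay does not need the length. Between assays, length cancels only as far as the same length of a gene is counted in both, which is not stated. The part of length in the differences between assays was not tested. DNMT3A, introduced in both groups, stood at 293 ± 2.23 CPM (SD, n = 2) in wild-type and 243 ± 2.39 in mutant mRNA (log2 -0.27, edgeR adjusted p = 4.27e-06). In footprints DNMT3A stood at 146 ± 11.6 CPM in wild type and 147 ± 3.49 in the mutant (log2 -0.0026, edgeR adjusted p = 0.992). The counts do not separate the introduced from the resident copy. Of 12 genes that define monocytes, 7 or 8 were at 0 in every library and 3 reached 10 CPM, whereas all 8 erythroid marker genes reached 10 CPM in every library. The erythroid genes summed to 1989 and 2024 CPM for wild type and 1663 and 1697 CPM for the mutant in mRNA, which goes against the labelled line. Of these 8, 3 fell in mRNA (HBZ by -0.90, KLF1 by -0.49 and GATA1 by -0.14 on the log2 scale), and 3 fell and 3 rose in footprints. Of 3 epithelial marker genes, KRT8 (-0.34) and KRT18 (-0.38) fell in mRNA, where EPCAM was at 0.22 and not called (edgeR adjusted p = 0.0527). All 3 fell in footprints, where KRT8 changed by -0.77. Of all genes, 18.9% were called higher and 18.9% lower in mRNA, and 10.3% higher and 10.9% lower in footprints. The part of the marker genes in the results below was not tested. In bulk libraries, more cells of a type and more RNA per cell cannot be told apart. Whether replicates are separate cultures is not stated, and p-values then reflect no more than how these libraries vary, which may be technical.

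In mRNA the 8 subunit genes lay within a narrow range of read numbers. Each ranked above at least 97.2% of the genes detected in its group. In wild-type mRNA the order of mean CPM was CCT5 at 782, CCT8 at 703, CCT3 at 636, CCT4 at 553, CCT7 at 501.6, TCP1 at 500.3, CCT6A at 467 and CCT2 at 399. Only the neighbours CCT7 and TCP1 overlapped between their replicates in that order. The highest of the 8 exceeded the lowest 1.88-fold and 2.04-fold in the wild-type mRNA libraries, and 2.02-fold and 1.97-fold in the mutant mRNA libraries. The coefficient of variation over the 8 genes, their SD as a percentage of their mean, was 22.1% and 23.5% in wild-type mRNA and 24.9% and 24.4% in mutant mRNA.

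In footprints the same 8 genes lay further apart. In wild-type footprints CCT5, a subunit that can form rings on its own, led with 1724 CPM, followed by CCT8 at 1169, CCT3 at 1142, CCT7 at 822, CCT4 at 796, CCT2 at 601, TCP1 at 550.1 and CCT6A at 511. CCT7 and CCT4 overlapped, and the other neighbours did not. The highest exceeded the lowest 3.26-fold and 3.49-fold in the wild-type libraries and 2.66-fold and 2.60-fold in the mutant libraries. The coefficient of variation was 44.7% and 45.5% in wild-type footprints and 37.7% and 36.8% in mutant footprints, so every footprint library was above every mRNA library. The means were 23.7% ± 1.22 in mRNA and 41.2% ± 4.53 in footprints (SD, n = 4), with a two-sided exact permutation p of 0.0286, the smallest that 4 against 4 libraries can give. The assays differ in library preparation as well as in what they sample, and these cannot be told apart in this spread.

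**Figure D1:**
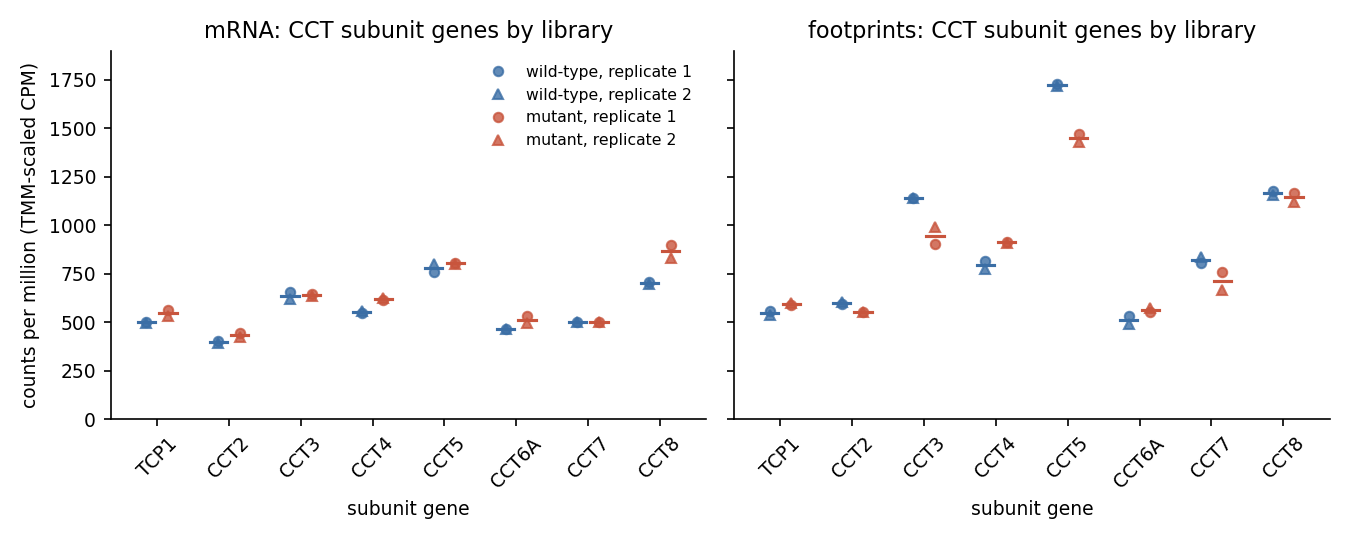
Scaled counts (CPM) of the 8 subunit genes in mRNA (left) and footprints (right), 1 symbol per library and a bar at the mean of the 2 libraries of a group. The genes spread from 399 to 865 CPM by group mean in mRNA and from 511 to 1724 CPM in footprints, and CCT5 is highest in both footprint groups.

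CCT5 gained and TCP1 and CCT6A lost share between mRNA and footprints. A share here is a gene's percentage of the counts of the 8 subunit genes in 1 library. CCT5 took 16.7%, 17.7%, 16.1% and 16.6% of the mRNA counts (wild-type replicates 1 and 2, then mutant replicates 1 and 2) and 23.5%, 23.6%, 21.3% and 20.9% of the footprint counts. All 4 footprint values lay above all 4 mRNA values. TCP1, the alpha subunit and the first to be named, took 11.05%, 10.98%, 11.23% and 11.01% in mRNA and 7.61%, 7.43%, 8.56% and 8.75% in footprints. CCT6A, which has a testis paralogue in CCT6B, took 10.2%, 10.3%, 10.6% and 10.2% in mRNA and 7.21%, 6.77%, 8.02% and 8.42% in footprints. Both fell below their whole mRNA range. CCT2, which has also been described as a receptor for aggregate autophagy, moved less, from a mean of 8.79% to 8.12%, again without overlap. These 4 genes each gave an exact permutation p of 0.0286 (two-sided, n = 4 in each assay), which became 0.0571 after Benjamini-Hochberg adjustment over the 8 genes, and 0 of 8 passed 0.05. The shares of CCT3 (means 13.5% and 14.7%), CCT4 (12.4% and 12.1%), CCT7 (10.6% and 10.8%) and CCT8 (16.5% and 16.3%) overlapped between mRNA and footprints over both genotypes. Within a genotype, the share of CCT4 changed from mRNA to footprints by -1.29 points in wild type and by 0.66 in the mutant, without overlap in either, and that of CCT8 by 0.50 and -0.93. The share of CCT3 changed by 1.60 points in wild type, without overlap, and by 0.74 in the mutant, with overlap. CCT7 changed by 0.19 and 0.18, with overlap in both. The test over 8 libraries does not use the genotype.

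**Figure D2:**
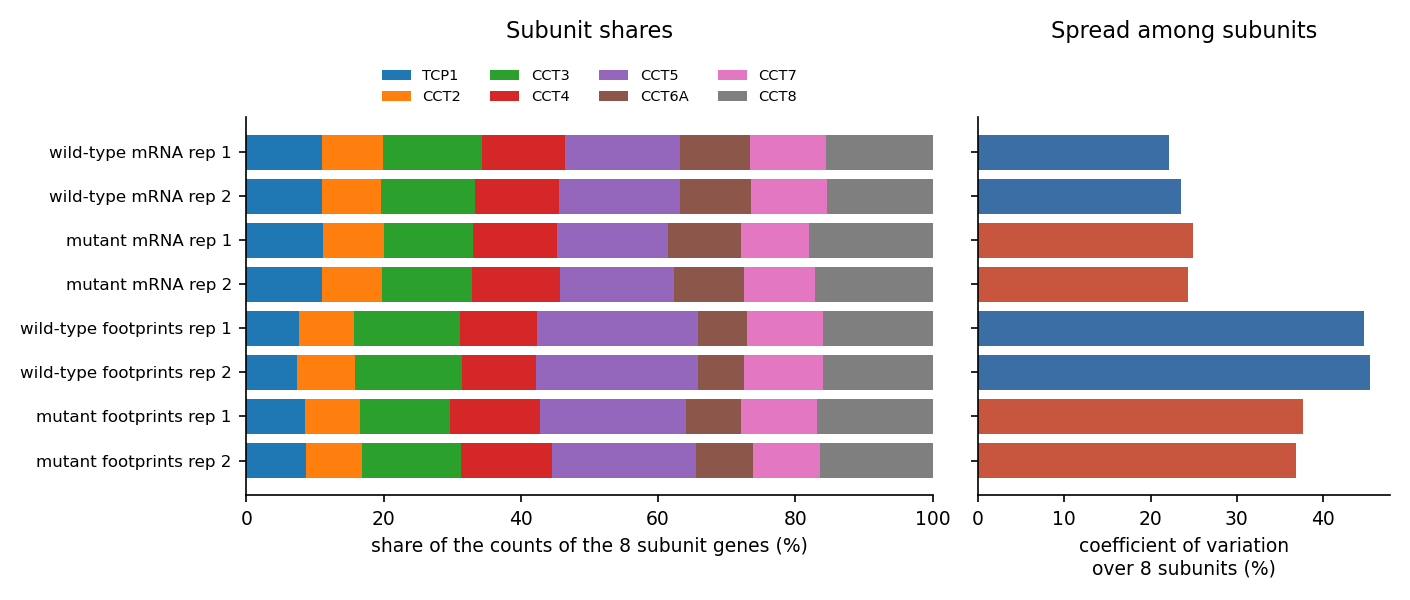
Left, percentage of the counts of the 8 subunit genes that each gene took in each library (stacked bars, summing to 100%). Right, coefficient of variation of the 8 counts in the same libraries, from 22.1% to 24.9% in mRNA and from 36.8% to 45.5% in footprints, with wild type in blue and mutant in red.

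Set against their own mRNA, the subunits differed in footprint level. In wild-type cells the log2 ratio of footprint to mRNA CPM was 1.14 for CCT5 (SE 0.039), 0.85 for CCT3, 0.73 for CCT8, 0.71 for CCT7, 0.59 for CCT2 and 0.52 for CCT4. TCP1 and CCT6A stood apart at 0.14 (95% interval 0.039 to 0.23) and 0.13 (0.027 to 0.23). A value of 0 is set by the scaling of each assay, so that a ratio is relative to the other genes, whose median was 0.039. The lower and upper quartiles over all genes were -0.55 and 0.55. All 8 subunits passed as higher (edgeR, adjusted p between 1.07e-40 and 0.0209), beside 36.4% of all genes called higher, 33.8% called lower and 70.2% called in either direction. TCP1 and CCT6A did not pass with wild-type mRNA replicate 2 left out (edgeR adjusted p = 0.0702 for TCP1), nor did CCT6A without wild-type footprints replicate 1 (edgeR adjusted p = 0.215). In mutant cells 6 of 8 passed as higher, beside 30.7% of all genes higher, 28.7% lower and 59.3% in either direction: CCT5 at 0.85, CCT4 at 0.56, CCT3 at 0.55, CCT7 at 0.52, CCT8 at 0.41 and CCT2 at 0.35. TCP1 at 0.12 (edgeR adjusted p = 0.076) and CCT6A at 0.13 (edgeR adjusted p = 0.0541) did not pass there.

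Named pseudogenes and overlapping genes could share reads with the subunits, and the strand setting and the treatment of reads with several matches are not stated. The reference table names 5 pseudogenes of CCT6A, 3 of TCP1, 2 each of CCT4, CCT5 and CCT7, 1 each of CCT3 and CCT8, and none of CCT2. TCP1 (chromosome 6, 159778498 to 159789602, GRCh38.p14) shares 615 bases with ACAT2, an acetyl-CoA acetyltransferase gene, and holds the small nucleolar RNA genes SNORA20 and SNORA29. CCT6A (chromosome 7, 56051765 to 56063989) holds SNORA22B and SNORA15. CCT3 (chromosome 1, 156308968 to 156338292) shares 979 bases with TSACC, and CCT4 (chromosome 2, 61868085 to 61888671) shares 281 with COMMD1 and 1610 with the long non-coding RNA gene LOC124907773. Of these 3 protein-coding neighbours ACAT2 had the most reads, with 72.1 CPM for wild-type mRNA and 203 CPM for wild-type footprints. The remaining genes lie on chromosome 12 (CCT2, 69585459 to 69601570), chromosome 5 (CCT5, 10249921 to 10266412), chromosome 2 (CCT7, 73234308 to 73253005) and chromosome 21 (CCT8, 29056326 to 29073648). The part of shared reads in the ratios was not tested.

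In the mutant, mRNA of 5 subunits was slightly higher and that of 3 was not called. CCT8, the theta subunit, had 708 and 697 CPM in wild-type mRNA and 899 and 831 CPM in mutant mRNA. The mutant libraries were both above the wild-type ones, and the rise was 1.23-fold (log2 0.30, SE 0.040; edgeR quasi-likelihood test, adjusted p = 2.37e-12). CCT4, the delta subunit, stood at 549 and 556.5 CPM in wild type and at 617 and 623.5 CPM in the mutant, a rise of 0.16 on the log2 scale (SE 0.042, edgeR adjusted p = 0.000635). CCT6A rose from 465 and 468 CPM to 530.2 and 496 CPM (log2 0.14), TCP1 from 503 and 498 to 562 and 533.5 CPM (log2 0.13) and CCT2 from 405 and 393 to 445 and 422 CPM (log2 0.12). Their edgeR adjusted p-values were 0.00708, 0.0091 and 0.0255.

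CCT3, CCT5 and CCT7 were not called in mRNA. CCT3 had 655 and 618 CPM in wild type and 645 and 637 in the mutant, with overlap (log2 0.013, 95% interval -0.069 to 0.094). CCT5 had 762 and 802 CPM in wild type and 807.5 and 802 in the mutant, also with overlap (log2 0.039, interval -0.038 to 0.12). CCT7 held between 499 and 502 CPM in all 4 libraries (log2 -0.0055, interval -0.092 to 0.081). The 5 calls among 8, all higher, stand beside 18.9% of all genes called higher and 37.7% called in either direction. In 6 subunits the mutant libraries did not overlap the wild-type ones, 5 higher and CCT7 lower, beside 34% of all genes higher without overlap, 33.9% lower and 67.8% in either direction. The median log2 change was 0.13 over the 8 subunits and -0.0022 over all 10756 genes tested. Summed over the 8 genes, mRNA came to 4541 ± 10.2 CPM for wild type and 4925 ± 113 CPM for the mutant (SD, n = 2), a ratio of 1.08 with an exact permutation p of 0.333, the smallest that 2 against 2 libraries can give.

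The mRNA calls depended on the setting. Changes in mRNA moved with the number of protein-coding genes within 500 kb, which was 4 for CCT4, 6 for CCT8, 8 for CCT2 and CCT5, 9 for TCP1, 11 for CCT6A, 12 for CCT7 and 38 for CCT3. With that trend removed 2 subunits passed, CCT8 at log2 0.17 (edgeR adjusted p = 0.000217) and CCT3 at 0.21 (edgeR adjusted p = 1.31e-05), while CCT4 came to 0.0053. DESeq2 called CCT8 and CCT4 alone, and leaving out any of 3 mRNA libraries (both wild-type ones and mutant replicate 1) left 2 subunits called, CCT8 and CCT4, which passed whichever of the 4 mRNA libraries was omitted (largest edgeR adjusted p = 0.000122 and 0.049).

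To set the 5 rises beside the DNA ahead of the genes, the 250 bases upstream of the RefSeq start (GRCh38.p14) were read. This was done for the 6 genes with a window wholly outside the subunit gene itself. CCT6A had no entry, the CCT5 entry and 1 of the 2 CCT2 entries lie inside the gene, and 1 of the 2 CCT4 entries runs into it; those windows are left out of the sequences and of the gene counts. Capitals mark 3 kinds of short motif that a search found, on either strand: the core of ETS-factor sites (CGGAAG, or CTTCCG on the other strand), the CCAAT box (CCAAT or ATTGG) and a head-to-head heat shock element (GAANNTTC, its own reverse complement). ETS factors and NF-Y bind the first 2 kinds, and HSF1 binds heat shock elements. The heat shock pattern searched is a short one of 2 inverted GAA units. Binding at any of the marked sites was not tested. TCP1 and CCT8, called higher in mRNA, are shown with CCT3 and CCT7, which were not. None of the marked motifs overlaps another in these 4 windows. The windows are TCP1 chr6:159789603-159789852 (minus strand), CCT8 chr21:29073649-29073898 (minus strand), CCT3 chr1:156338293-156338542 (minus strand) and CCT7 chr2:73234058-73234307 (plus strand).
TCP1: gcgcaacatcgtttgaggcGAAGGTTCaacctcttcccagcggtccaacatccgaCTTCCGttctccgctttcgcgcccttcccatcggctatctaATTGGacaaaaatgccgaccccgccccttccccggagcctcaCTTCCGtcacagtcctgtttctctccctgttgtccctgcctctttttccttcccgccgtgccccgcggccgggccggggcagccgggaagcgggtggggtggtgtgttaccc
CCT8: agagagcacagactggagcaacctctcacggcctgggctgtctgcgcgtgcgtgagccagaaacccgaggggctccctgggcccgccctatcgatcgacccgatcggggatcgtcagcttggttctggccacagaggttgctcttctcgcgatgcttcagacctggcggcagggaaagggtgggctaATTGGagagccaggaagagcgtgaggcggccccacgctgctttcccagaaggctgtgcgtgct
CCT3: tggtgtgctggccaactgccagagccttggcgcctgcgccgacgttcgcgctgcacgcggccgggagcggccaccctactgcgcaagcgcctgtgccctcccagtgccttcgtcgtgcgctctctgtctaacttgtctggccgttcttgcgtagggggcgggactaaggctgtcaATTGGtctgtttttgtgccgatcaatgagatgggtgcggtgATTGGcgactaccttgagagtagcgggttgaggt
CCT7: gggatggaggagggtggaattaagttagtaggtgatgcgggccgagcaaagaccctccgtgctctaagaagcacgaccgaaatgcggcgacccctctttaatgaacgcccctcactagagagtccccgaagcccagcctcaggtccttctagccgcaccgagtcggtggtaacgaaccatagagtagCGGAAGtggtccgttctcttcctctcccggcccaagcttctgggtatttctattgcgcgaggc
TCP1 holds 2 ETS cores, 1 CCAAT box and 1 heat shock element, CCT8 1 CCAAT box, CCT3 2 CCAAT boxes and CCT7 1 ETS core. The TCP1 window runs into the neighbouring gene MRPL18, which starts at 159789812, and the TCP1 heat shock element lies inside MRPL18. The CCT3 window lies wholly inside TSACC, and the CCT4 window wholly inside COMMD1. Over the 6 genes, each with 1 window, the ETS core was found for 3 (TCP1, CCT2, CCT7), the CCAAT box for 4 (TCP1, CCT2, CCT3, CCT8), a GC box (GGGCGG or CCGCCC) for 4 (TCP1, CCT2, CCT3, CCT8) and the head-to-head heat shock element for 1 (TCP1). The tail-to-tail form (TTCNNGAA, its own reverse complement) and a TATA box (TATAAA or TTTATA) were found for 0 of 6. These letters occur in 16.5%, 32.0%, 42.6%, 5.78%, 6.62% and 10.7%, in that order, of all 35116 windows of that length, some genes having several. ETS cores and CCAAT boxes each stand before subunits called higher in mRNA and before subunits not called.

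In footprints the subunits split. CCT3, CCT5 and CCT7 fell and CCT4 rose. CCT5 had 1730.3 and 1717 CPM in wild-type footprints and 1470.5 and 1431 CPM in mutant footprints, a fall to 0.844 of the wild-type level (log2 -0.25, SE 0.046, edgeR adjusted p = 1.37e-05). CCT3, the gamma subunit, had 1141 and 1142 CPM in wild type and 901 and 989.8 CPM in the mutant, a fall to 0.821 (log2 -0.28, SE 0.052, edgeR adjusted p = 1.15e-05). Both mutant libraries were below both wild-type libraries in each case. CCT7, the eta subunit, fell from 806 and 837 CPM to 757 and 665 CPM (log2 -0.19, edgeR adjusted p = 0.00879). CCT4 rose from 817 and 775 CPM to 913 and 911 CPM (log2 0.20, SE 0.055, edgeR adjusted p = 0.00425).

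The other 4 subunits were not called in footprints. CCT8, the subunit with the largest mRNA rise of the 8, had 1179 and 1158 CPM in wild type against 1167 and 1121 CPM in the mutant, with overlap (log2 -0.025, 95% interval -0.12 to 0.073). TCP1 was 0.11 higher on the log2 scale (interval -0.011 to 0.24), CCT6A 0.14 higher (0.014 to 0.27) and CCT2 at -0.12 (-0.25 to 0.0045), with no overlap between groups but edgeR adjusted p-values of 0.197, 0.106 and 0.168. The 3 lower calls stand beside 10.9% of all genes called lower, the 1 higher call beside 10.3%, and the 4 together beside 21.2%. Groups did not overlap for 7 subunits, 3 higher and 4 lower, beside 29.5% of all genes higher without overlap, 29.3% lower and 58.8% in either direction. The summed level was 7314 ± 63.7 CPM for wild-type footprints and 6876 ± 43.7 CPM for mutant footprints (SD, n = 2), a ratio of 0.940 with an exact permutation p of 0.333. Without mutant footprints replicate 1 only CCT5 passed of the 8, at an edgeR adjusted p of 0.0268. With either wild-type footprints replicate 2 or mutant footprints replicate 2 left out, 2 passed. Each of these omissions also lowered the number called over all genes. DESeq2 called CCT3 and CCT5 alone of the 8, beside 4.32% of all genes called. With the gene density trend removed CCT3 (log2 -0.13, edgeR adjusted p = 0.0744) and CCT4 (0.061, edgeR adjusted p = 0.486) did not pass, while CCT2 (-0.20, edgeR adjusted p = 0.0165) and CCT8 (-0.14, edgeR adjusted p = 0.0407) did.

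**Figure D3:**
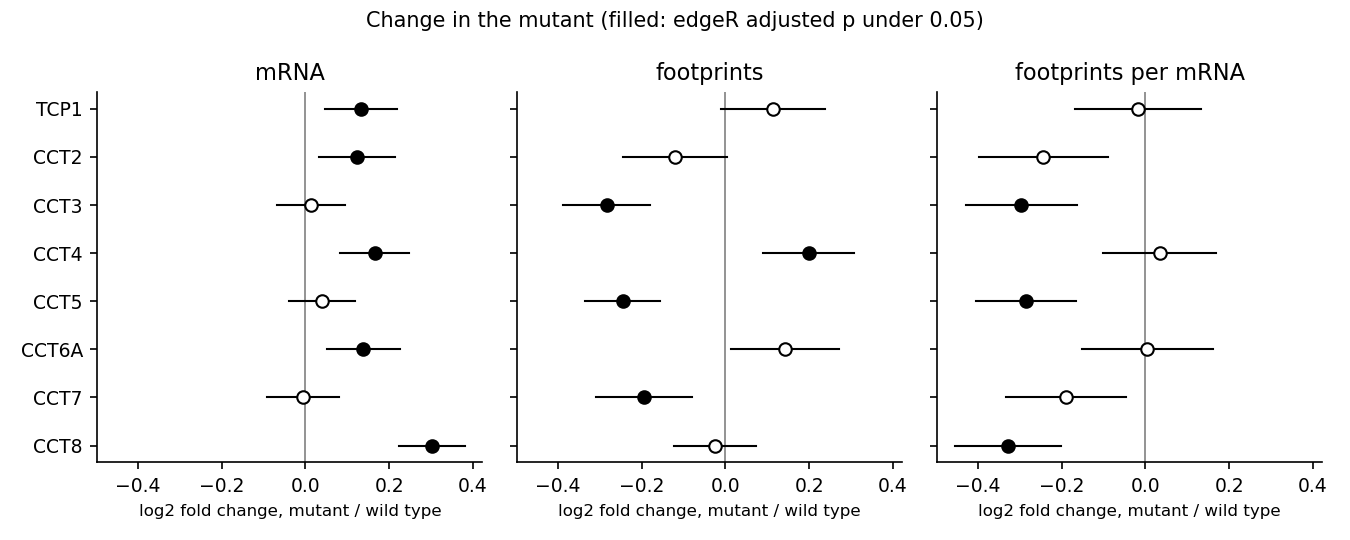
Log2 change of each subunit gene in the mutant against wild type, in mRNA (left), footprints (middle) and footprints per mRNA (right), with 95% intervals; filled symbols had an edgeR adjusted p under 0.05. CCT8 is highest in mRNA at 0.30 and lowest in footprints per mRNA at -0.33, while TCP1, CCT4 and CCT6A lie near 0 in footprints per mRNA.

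Footprints per mRNA, the genotype by assay interaction over the 8 libraries, were lower in the mutant for 3 subunits. CCT8 changed by -0.33 (SE 0.064, edgeR adjusted p = 0.000277), CCT3 by -0.30 (SE 0.066, edgeR adjusted p = 0.00223) and CCT5 by -0.28 (SE 0.059, edgeR adjusted p = 0.000808) on the log2 scale, falls to 0.797, 0.814 and 0.821 of the wild-type ratio. Side by side, the changes in mRNA and in footprints were 0.30 and -0.025 for CCT8, 0.013 and -0.28 for CCT3, and 0.039 and -0.25 for CCT5; whether the subunits differ in this was not tested. With the gene density trend removed they were 0.17 and -0.14 for CCT8, 0.21 and -0.13 for CCT3, and -0.057 and -0.33 for CCT5, and the change per mRNA kept its call in all 3. DESeq2 called the same 3 subunits. The 3 lower calls among 8 stand beside 2.37% of all genes called lower, 1.78% called higher and 4.15% called in either direction. The median log2 change was -0.22 over the 8 subunits and 0.0046 over all 9166 genes tested.

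CCT2 and CCT7 lay on the same side without passing. CCT2 was at -0.24 (95% interval -0.40 to -0.09, edgeR adjusted p = 0.053) and CCT7 at -0.19 (interval -0.33 to -0.046, edgeR adjusted p = 0.129). CCT4 at 0.034 (-0.10 to 0.17), CCT6A at 0.0045 (-0.15 to 0.16) and TCP1 at -0.018 (-0.17 to 0.13) had intervals that include 0. TCP1 and CCT6A, 2 of these 3, had the lowest footprint ratios of the 8 in wild type, while CCT4 stood at 0.52 there. The wild-type ratio enters the change itself, so ratio and change are not independent. The calls of CCT5 and CCT8 held with each library left out in turn (largest edgeR adjusted p = 0.0231 and 0.00572). The CCT3 call did not hold without mutant footprints replicate 1, with a change of -0.22 and an edgeR adjusted p of 0.213. With a coefficient of variation of 10% assumed between replicates, 0 of the 8 passed in footprints per mRNA, in footprints or in mRNA. In ring order the 3 called subunits are not a contiguous run, since CCT6A lies between CCT3 and CCT8 and CCT7 lies between CCT8 and CCT5. The 3 genotype comparisons use the same libraries, so that agreement between them is not independent.

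**Figure D4:**
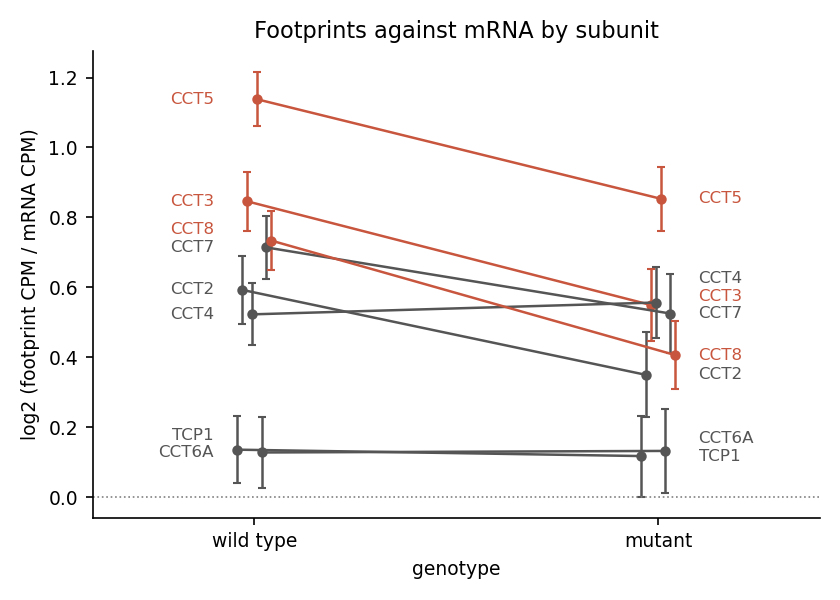
Log2 ratio of footprint to mRNA CPM for each subunit in wild-type and mutant cells, with 95% intervals; lines join a subunit's 2 values and red marks the 3 subunits whose ratio differed between genotypes (edgeR adjusted p under 0.05). CCT5 goes from 1.14 to 0.85 and stays highest, while TCP1 and CCT6A stay between 0.12 and 0.14.

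The relative amounts of the subunits within an assay shifted with these changes. In mRNA the share of CCT8 was 15.6%, 15.4%, 18.0% and 17.2% in the order wild-type replicates 1 and 2 and mutant replicates 1 and 2, a mean difference of 2.09 percentage points. CCT3 (14.01% to 13.01%), CCT7 (-0.90 points) and CCT5 (-0.87) took less and CCT4 (0.42) took more, and these 5 genes did not overlap between genotypes. In mutant mRNA CCT8, at 865 CPM, stood above CCT5, at 805 CPM, the reverse of their wild-type order. In footprints CCT5 (-2.47 points), CCT3 (-1.86) and CCT7 (-0.90) took less and CCT4 (2.38), CCT6A (1.23) and TCP1 (1.14) took more, and the shares of all 8 did not overlap between genotypes. CCT4 thereby came level with CCT3, at 912 and 945 CPM with overlapping replicates. By CPM, 67.8% of all genes in mRNA and 58.8% in footprints did not overlap between genotypes. Shares sum to 100%, so that one gene's gain is the loss of others and the 8 are not separate results. With 2 libraries a group no exact permutation p fell below 0.333. The coefficient of variation over the 8 subunits in footprints was 45.1% ± 0.540 in wild type and 37.3% ± 0.608 in the mutant (SD, n = 2, exact permutation p = 0.333).

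Pairs of subunits, picked after their values were seen, show the size of these shifts. CCT5 had 1.52, 1.61, 1.44 and 1.503 times the counts of TCP1 in the mRNA libraries, in the same order, and 3.09, 3.18, 2.49 and 2.39 times in footprints. CCT8 had 1.08 and 1.13 times the counts of CCT3 in wild-type mRNA and 1.39 and 1.31 times in mutant mRNA, and 1.03, 1.01, 1.30 and 1.13 times in footprints. Both ratios separate the genotypes without overlap in both assays, which the choice of pairs favours. By CPM, 67.8% of single genes in mRNA and 58.8% in footprints do not overlap either. The share over all gene pairs was not counted.

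Over the 8 libraries, the genes most like the mean of the 8 subunits were WARS1, a tryptophanyl-tRNA synthetase (distance 0.109), SEC23B, a COPII coat component (0.121), PSMC2, a proteasome ATPase (0.125), RHOA, a small GTPase (0.128), and EXOSC9, an RNA exosome subunit (0.133). The measure was the Euclidean distance in log2 CPM over the 8 libraries, among 3068 well-counted genes. Each gene was centred on its mean in wild-type mRNA, and scatter between replicates is part of the distance. CCT2 itself ranked 3 in that list with a distance of 0.122, whereas CCT7 ranked 54, CCT4 61, CCT3 168, CCT8 176, CCT6A 927, TCP1 948 and CCT5 1187. The mean profile is built from these 8 genes, and subunits that differ from one another lie away from their own mean. With 3068 genes ranked, that others lay closer than 7 of the 8 is a description. It was not set against other groups of genes.

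Partners and clients of CCT were followed as lists, to be read against the share of all genes called: in mRNA 18.9% higher and 18.9% lower, in footprints 10.3% higher and 10.9% lower, and in footprints per mRNA 1.78% higher and 2.37% lower. Of the 6 prefoldin subunits, which pass clients to CCT, 4 rose and 0 fell in mRNA, with a median log2 change of 0.27. PFDN4 went from 40.5 ± 0.421 to 55.7 ± 0.138 CPM (SD, n = 2; log2 0.46, edgeR adjusted p = 0.000241), VBP1 rose by 0.31 (edgeR adjusted p = 0.00129) and PFDN5 by 0.25 (edgeR adjusted p = 0.000305). In footprints 3 rose and 1 fell. PFDN4 rose by 0.84 and PFDN5 fell, from 368 ± 3.39 to 285 ± 6.53 CPM (log2 -0.36). PFDN5 was the 1 prefoldin gene called in footprints per mRNA, at -0.61 (edgeR adjusted p = 5.46e-06). Of the 3 phosducin-like co-chaperones tested and the 5 tubulin-folding cofactors tested, edgeR and DESeq2 called 0 in mRNA and 0 in footprints per mRNA, where 0 of the first list and 1 of the second had an unadjusted edgeR p under 0.05 in each. TBCA, which binds beta-tubulin released from CCT, was higher in footprints (log2 0.62, edgeR adjusted p = 0.00328). DESeq2 called 2 prefoldin genes in mRNA and 1 in footprints, and 0 tubulin-folding cofactors in footprints.

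Among other chaperonin genes, 4 of 5 tested rose in mRNA and 0 fell. HSPD1, the mitochondrial chaperonin, rose by 0.21 (edgeR adjusted p = 8.15e-06), its co-chaperonin HSPE1 by 0.36 (edgeR adjusted p = 0.00292) and BBS10, a chaperonin-like protein of the primary cilium, by 0.58 (edgeR adjusted p = 0.00346). In footprints 0 of 3 tested were called by edgeR or by DESeq2, and 0 had an unadjusted edgeR p under 0.05. DESeq2 called 1 of the list in mRNA. CCT6B was too low to test. Of 12 heat shock factors and partners, 4 rose and 2 fell in mRNA and 1 rose and 2 fell in footprints, and the 6 mRNA calls are near the 37.7% of all genes. HSPH1, an HSP110 chaperone, rose by 0.31 (edgeR adjusted p = 0.000683) and HSPA4, its relative, by 0.16 (edgeR adjusted p = 0.00732), while HSF1, the main heat shock transcription factor, changed by -0.23 (edgeR adjusted p = 0.000892). HSP90AA1, the inducible HSP90, was the 1 gene of the list called in footprints per mRNA, at -0.25 (edgeR adjusted p = 0.0277). DESeq2 called 0 of the 12 in mRNA and 0 in footprints per mRNA.

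Actin and tubulin mRNAs went the other way. None of the lists of partners and clients was examined with the gene density trend removed. Of 11 actin and tubulin genes tested, 9 fell and 0 rose in mRNA, with a median log2 change of -0.32. ACTB, cytoplasmic beta-actin, went from 5811 ± 65.1 to 4514 ± 147 CPM (SD, n = 2; log2 -0.36, edgeR adjusted p = 7.06e-26). ACTG1, gamma-actin, changed by -0.32 (edgeR adjusted p = 1.6e-17) and TUBB6, a beta-tubulin, by -0.35 (edgeR adjusted p = 4.89e-09). In footprints 6 fell and 1 rose. ACTB fell further there, from 9398 ± 387 to 5931 ± 312 CPM (log2 -0.67), and was lower per mRNA by -0.30 (edgeR adjusted p = 9.02e-06), while TUBA1C, an alpha-tubulin, was higher per mRNA by 0.32 (edgeR adjusted p = 0.0218). Actin and tubulin genes have near-identical copies, so the split of reads among them is uncertain. Of 16 beta-propeller and other clients, 6 fell and 1 rose in mRNA, near the 37.7% of all genes called, and of 14 tested in footprints 2 fell and 0 rose, beside 21.2% called. GNB2, a G-protein beta subunit, changed by -0.35 (edgeR adjusted p = 1.96e-11), MLST8, a subunit of the TOR complexes, by -0.37 (edgeR adjusted p = 2.66e-06) and FZR1, an activator of the anaphase-promoting complex, by -0.40 (edgeR adjusted p = 5.13e-05). In footprints per mRNA 0 of the 14 tested were called by edgeR or by DESeq2, and 1 had an unadjusted edgeR p under 0.05. DESeq2 called 8 of the actin and tubulin genes in mRNA, 3 in footprints and 1 per mRNA, and 3 of the other clients in mRNA and 0 in footprints.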

How the data were processed

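Counts per gene were deposited by the authors as whole numbers, not normalized, in 1 table per library. Tools listed, per the submitters' processing notes, are featureCounts, STAR, Bowtie2, Trimmomatic and cutadapt, with the build given as hg38 or GRCh38 and no roles or versions. The counted feature, strand setting and treatment of multiple matches were not given in these sources. Per the labels' protocols, mRNA was copied with oligo(dT), and footprints were made with RNase I, selected on a gel and depleted of ribosomal RNA.

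Of 20453 IDs, 20407 matched a symbol. Each assay was scaled by TMM and filtered by filterByExpr, and tested with edgeR 4.0.16 in R 4.3.3 (glmQLFit with legacy set to FALSE, glmQLFTest) on all genes, with Benjamini-Hochberg adjustment and calls at 0.05. Genes kept in both assays entered 1 model over 8 libraries for footprints per mRNA and for footprints against mRNA. Shares and spread were compared by exact permutation, two-sided. They were planned per coding length, but no lengths were used here and they are of counts. Promoters and positions are from RefSeq, GRCh38.p14. Alternatives were DESeq2 1.42.0, other scalings and filters, an assumed coefficient of variation of 10%, removal of the gene density trend, a replicate block and omission of each library.

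Named were the 8 members, DNMT3A, genes overlapping a member, the 5 genes of nearest pattern (mean count of at least 100), and in each list up to 3 members with the smallest p in mRNA plus those called in footprints per mRNA; the marker genes, TBCA and the footprint values of PFDN4, PFDN5 and ACTB were added after their values were seen. Members and lists were chosen with earlier results of these data known. Of the other marker lists, T and NK genes had 1 of 5 at 10 CPM or above in every library, B-cell genes 0 of 4 and epithelial genes 3 of 3. Replicates of each group differed by more than sampling noise over genes with at least 500 counts, but over genes with at least 20 the footprint replicates did not (chi-square per degree of freedom 1.01 in wild type, p = 0.294, and 0.925 in the mutant). Samples sharing a number correlated in their deviations at 0.102 between genotypes in mRNA and 0.141 in footprints. Between assays they correlated at 0.0845 in wild type and 0.128 in the mutant. These values do not establish pairing. The procedure was tested on simulated data.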

Additional observations from a re-analysis of the deposited data

Results flagged for a closer look

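For 3 subunit genes the difference between mutant and wild type was not the same in footprints as in mRNA, by a test of the difference itself (edgeR interaction of genotype and assay, adjusted over 9166 genes). The log2 differences, footprints minus mRNA, were -0.33 for CCT8, -0.30 for CCT3 and -0.28 for CCT5. The 2 mutant footprint libraries on which they rest were the shallowest of the 8.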

How the results depend on the processing

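The larger ratios of footprints to mRNA were the most stable results under the alternatives run, none of which dealt with length. CCT2, CCT3, CCT4, CCT5, CCT7 and CCT8 passed within each genotype under each alternative run for these contrasts, with an assumed coefficient of variation of 10% included. Genotype changes rested on the low spread between replicates, a coefficient of variation of 2.25% in mRNA and 1.92% in footprints. With 10% assumed in its place, 0 of 8 subunits passed in any of the 3 genotype comparisons (mRNA, footprints, footprints per mRNA), and 313, 288 and 13 genes in all. DESeq2 called 2 subunits in mRNA, 2 in footprints and, for footprints per mRNA, 3, and called 1467, 397 and 130 genes in all in the same order. With the gene density trend removed 2 subunits passed in mRNA and the change of CCT5 became -0.057. Without a filter on low counts CCT7 in mRNA came to 0.0055 and CCT6A in footprints per mRNA to -0.026. The causes of these moves were not tested.

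With each library left out in turn, the subunits called numbered 2 to 5 in mRNA, 1 to 5 in footprints and 2 to 4 per mRNA, and the genes called in all 2280 to 3838, 274 to 1799 and 139 to 450. Values near 0 changed sign: CCT3 in mRNA ranged from -0.027 to 0.052, and in footprints per mRNA TCP1 from -0.0598 to 0.0199, CCT4 from -0.0096 to 0.065 and CCT6A from -0.057 to 0.054. The difference in coefficient of variation between assays ranged from 16.0 to 18.9 percentage points around 17.4.

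With the replicate block the subunits called numbered 5 in mRNA, 4 in footprints and 4 per mRNA, and 8 and 7 for footprints against mRNA in wild type and mutant. Genes in all numbered 4168, 2076, 495, 6565 and 5599. Division by transcript or coding length was planned and not run. The mutant footprint libraries, at 944824 and 603360 counts, set the precision of the footprint results.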
